A study of Mus musculus with 8 samples.

Results

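TRIM proteins, the subject here, were followed through their transcripts in CD8 T cells of mice with and without interleukin-2 (IL-2), a growth factor of activated T cells on which regulatory T cells depend. A gene was counted as a TRIM member where its mapped mouse symbol was Trim followed by digits and an optional letter. By this rule 37 of the 11723 listed genes were members. Of these, 13 belonged to an interferon-induced list written from general knowledge (15 genes, with Trim6 and Trim30b not listed), and 24 were the other members. The RefSeq annotation of GRCm38 holds 68 such symbols, so 31 of them were not among the listed genes.

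CD8 T cells were sorted on an ARIA II instrument from the peripheral lymph nodes of BALB/c mice aged 12 days, and total RNA was sequenced with a strand-marking kit. Wild-type (WT) mice gave 4 libraries, for which 5, 5, 3 and 2 mice were pooled and 115, 28.7, 1.3 and 1.3 M cells collected (replicates 1 to 4, with M for 1e6). Mice lacking IL-2 (IL-2-KO) gave 4 libraries, from 26.7, 42.6, 1.1 and 0.4 M cells, and pooling is not stated for them. In the series' own description spleen is a further tissue and heterozygotes may be in the control group, while the sample labels give lymph nodes and WT, which are used here. No treatment is given for either group. All levels below are the deposited signal values, counts per 1e6 of the TMM-scaled library size, and every difference is IL-2-KO minus WT.

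TRIM proteins carry a RING domain, 1 or more B-boxes and a coiled coil, followed by a C-terminal domain that differs between classes, and most act as ubiquitin or SUMO ligases. Many members with a C-terminal B30.2/SPRY domain restrict viruses or tune the signalling of nucleic acid sensors, and a share of these are themselves transcribed in response to interferon. Others have roles outside immunity, such as the chromatin corepressor Trim28 and the centriole and peroxisome ligase Trim37. Interferons act through JAK kinases and STAT proteins, and type I interferon acts on promoters mainly through the interferon-stimulated response element.

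The sequences below show the core of that element in members' promoters, because the interferon-induced members shared it and the 2 lists were set by gene name, not by promoter. RefSeq promoters (GRCm38.p6, 300 bases from 250 before to 50 after each start) were at hand for 29 of the 37 members. The core was searched as GAAANNGAA on the gene's strand or TTCNNTTTC, the same core on the opposite strand. It was found in 10 of the 12 interferon-induced members with a promoter (83.3%), and not in Trim30c or Trim56. The 10 were Trim12a, Trim12c, Trim21, Trim25, Trim26, Trim30a, Trim30d, Trim34a, Trim34b and Trim5. Trim30a and Trim30d had the same stretch, and so had Trim5 and Trim12a, with Trim12c alike at 27 of 29 bases. The 10 matches are therefore not independent. Among the other members the core was found in 2 of 17 (11.8%), Trim2, whose stretch is not printed, and Trim7. Of all promoter entries by gene, 9.76% held it, as did 10 of the 21 interferon-responsive genes outside the family that had a promoter (47.6%). The stretches are 29 bases each, 5′ to 3′ on the gene's strand, with the core in capitals, and they come from the reference assembly, not from BALB/c reads.
Trim30a: gttctttagtTTCTTTTTCtcagttcctg
Trim30d: gttctttagtTTCTTTTTCtcagttcctg
Trim5: gagttgtggtTTCTGTTTCatttccagag
Trim12a: gagttgtggtTTCTGTTTCatttccagag
Trim12c: gagttgtggtTTCTGTTTCatttccagct
Trim34a: ggtttggagtTTCAGTTTCttttctctgc
Trim34b: tccttctgccTTCTCTTTCctgtgccacc
Trim25: gcccctcctgTTCAGTTTCgattccttcc
Trim26: cgcttccgatTTCACTTTCcttttctcgg
Trim21: cctctgagagGAAACTGAAagtgaaattt
Trim7: tggcattccgTTCCGTTTCagccaagcac

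The Trim30a stretch lies at chr7:104465210-104465238 on the minus strand, with its core 35 bases upstream of a start, and Trim30a has another core at another start. The Trim30d stretch at chr7:104507871-104507899, 40 bases upstream of its start, matched it at 29 of 29 bases. Trim5 (chr7:104288136-104288164, minus strand, 48 bases upstream) and Trim12a (chr7:104315466-104315494, minus strand, 12 bases downstream) were likewise identical over 29 bases, and Trim12c (chr7:104353359-104353387, minus strand, 28 bases upstream) shared 27 of them. The cores of Trim34a (chr7:104244458-104244486, plus strand) and Trim21 (chr7:102565451-102565479, minus strand) lay 12 and 14 bases downstream of their starts. The core of Trim25 lay 9 bases upstream (chr11:88999384-88999412, plus strand) and that of Trim7 115 bases upstream (chr11:48826013-48826041, plus strand). In Trim26 (chr17:36836977-36837005, plus strand) and Trim34b (chr7:104329250-104329278, plus strand) the core lay 159 and 211 bases upstream. Trim21 and Trim26 each held another core that overlapped the one printed. A STAT site core, TTCNNNGAA, was found in 1 of 12 interferon-induced members (Trim30c) and 3 of 17 others (Trim15, Trim45 and Trim46). Of all genes with a promoter, 9.55% held such a core. A match of letters is a description and does not show binding.

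The whole promoter part upstream of that Trim30a start, chr7:104465194-104465443 on the minus strand, is printed because Trim30a was the interferon-induced member with the smallest adjusted p. It is 250 bases long, with the core in capitals.
Trim30a upstream: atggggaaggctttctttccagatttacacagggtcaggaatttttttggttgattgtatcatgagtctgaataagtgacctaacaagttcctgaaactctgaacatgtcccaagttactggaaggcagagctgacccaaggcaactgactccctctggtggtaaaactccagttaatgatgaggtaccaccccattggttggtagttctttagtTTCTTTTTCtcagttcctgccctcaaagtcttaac

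The libraries held 11.9 M (WT replicate 2) to 18.4 M (IL-2-KO replicate 3) counts over the listed genes, so that a value of 1 rests on 11.9 to 18.6 counts. Of the CD8 T cell markers 7 of 7 were listed, with a summed level of 5650 to 6580 in WT and 4916 to 5716 in IL-2-KO. Markers of other cell types were low but uneven. The summed level of 7 listed dendritic cell markers (of 10) was 333 in WT replicate 2 and 800 in IL-2-KO replicate 3, while the remaining libraries ran from 8.36 to 14.8 in WT and from 18.6 to 50.1 in IL-2-KO. The same libraries were the highest of their groups for 5 listed myeloid markers (of 13), at 107 and 439, and for CD4 and regulatory T cell markers (5 of 5), at 93.1 and 236. The CD4 and regulatory T cell sum was also higher in the remaining IL-2-KO libraries (64.9 to 74.9) than in the remaining WT libraries (14.1 to 20.4). That of natural killer cell markers (2 of 6 listed) was 1.32 to 5.93 in WT and 3.85 to 14.3 in IL-2-KO. By limma with Benjamini-Hochberg adjustment, Ctla4 and the natural killer receptor gene Klre1 rose and Thy1 fell among all these markers. Their part in the changes of TRIM members was not tested. The B cell genes Ms4a1 and Pax5 and the myeloid genes Csf1r, Cd14 and Adgre1 were not among the listed genes. The 4 listed B cell markers (of 10) summed to 41.5 in WT replicate 2 and 60.9 in IL-2-KO replicate 3. The remaining libraries ran from 24.6 to 30.9 in WT and from 21.2 to 28.6 in IL-2-KO. Erythroid sums (4 of 8 listed) were 14.7 to 94.9 in WT and 9.76 to 43.5 in IL-2-KO. Stromal and endothelial sums (4 of 8) were 193 to 219 and 178 to 207. The targeted gene did not check the labels: Il2 stood at 5.88 ± 0.268 in WT and 6.28 ± 1.92 in IL-2-KO (SD, n = 4 each). In bulk RNA, fewer cells that express a gene and less RNA per cell cannot be told apart.

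Of the 37 TRIM members, 5 were higher in IL-2-KO than in WT (Trim30a, Trim30c, Trim7, Trim37 and Trim59) and 3 were lower (Trim36, Trim39 and Trim11). The test was limma with Benjamini-Hochberg adjustment over 11530 genes and a threshold of 0.05. This is 21.6% of the members, beside 19.2% of all genes tested, so the share of members called was near the background. Over all genes 11.1% were higher and 8.03% lower. In 9 members the values of the groups did not overlap, 5 above and 4 below, beside 24.2% of all genes. The median change over the members was -0.01 on the log2 scale, the same as over all genes at 2 decimals, with 18 changes above 0 and 19 below. No member was called among the 4 libraries of at least 2 M cells, 2 against 2, where calls over all genes fell to 322 higher and 62 lower.

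**Figure D1:**
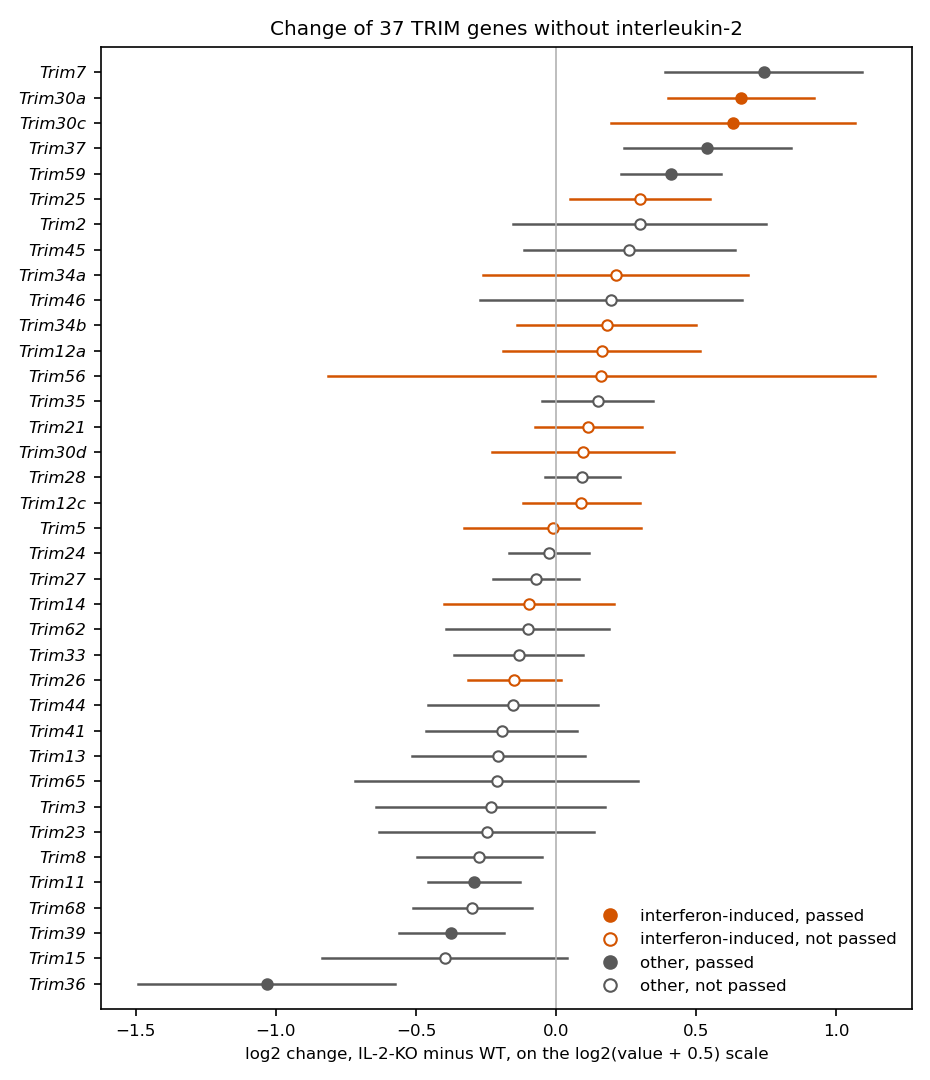
Log2 change in IL-2-KO against WT for each TRIM member (x axis, log2 of value + 0.5), with 95% confidence intervals from limma as bars. Members are ordered by change, orange marks the interferon-induced list, filled points passed the test, and Trim7 (0.74) and Trim36 (-1.03) stand at the ends.

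The 13 interferon-induced members shifted little. Trim30a and Trim30c rose, none fell, and 11 did not pass the test (15.4% called). Their median change was 0.16, with 10 changes above 0 (8 after quantile scaling, where Trim12a and Trim30d changed sign) and quartiles at 0.09 and 0.21. Leaving out 1 library moved this median to 0.064 (without IL-2-KO replicate 2), 0.081 (without WT replicate 2) or 0.094 (without IL-2-KO replicate 4), and at most to 0.21. The median gene is Trim56, whose own interval is wide. The other 24 members had 3 rises and 3 falls (25% called), a median of -0.14, and 16 changes below 0. Within single IL-2-KO libraries the median difference of these members from the WT mean was smaller in size, at -0.09 to -0.02. A difference between the lists was not tested. Trim30a and Trim30c both lie in the cluster of TRIM genes at chr7:104244448-104507853, which spans 263 kb and holds 8 listed members. There 2 of 8 were called, with a median of 0.17, and 1 of these calls, Trim30c, was lost in most alternatives. Of the interferon-induced members elsewhere 0 of 5 were called, with a median of 0.12, and a difference between these counts was not tested. With 19.2% of all genes called, counts this small are near the background.

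Trim30a, a mouse B30.2 protein known as a brake on NF-kB signalling downstream of Toll-like receptors, was the clearest of these. Its level was 152, 153, 140 and 156 in WT replicates 1 to 4 and 198, 294, 212 and 256 in IL-2-KO replicates 1 to 4. Every IL-2-KO library was above every WT library, and the IL-2-KO libraries were spread more widely. The mean rose from 150 ± 6.81 to 240 ± 43.9 (SD, n = 4 each), a 1.58-fold rise on the log2(value + 0.5) scale (log2 0.66, SE 0.117, limma adjusted p = 0.00353). The call held in 19 of 20 alternative analyses, the exception being the 4 libraries of at least 2 M cells, where the change was 0.66 with an adjusted p of 0.128.

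Trim30c, a neighbour of Trim30a, was near the lowest level measured. It stood at 1.27, 1.60, 1.21 and 1.99 in WT and at 2.21, 2.43, 3.23 and 2.57 in IL-2-KO. The groups did not overlap, and the lowest library held 19 counts. The mean went from 1.52 ± 0.359 to 2.61 ± 0.437 (log2 0.63, SE 0.196, limma adjusted p = 0.0477). This call was lost when any 1 library was left out (limma adjusted p 0.0510 to 0.141), and it held in 3 of 18 alternatives.

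Trim30d, the other listed Trim30 gene, was not called. Its level was 7.24, 7.42, 7.57 and 6.84 in WT and 5.98, 8.68, 7.99 and 8.86 in IL-2-KO (log2 0.10, SE 0.147, limma adjusted p = 0.692). The groups overlapped through IL-2-KO replicate 1, which was below every WT library. The ratio of Trim30a to Trim30d was 20.9, 20.6, 18.5 and 22.8 in WT and 33.0, 33.9, 26.6 and 28.9 in IL-2-KO, without overlap. This pair was chosen after the values were seen, so the ratio is a description with no test. The pair shares the promoter stretch printed above, and 6.53% of the 50-base stretches of the Trim30a transcript also occur in Trim30d.

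The remaining cluster genes are the mouse relatives of primate TRIM5, a factor that restricts retroviral capsids, and of TRIM34. Trim12c, the most abundant of them, stood at 168, 134, 163 and 179 in WT and 157, 180, 176 and 169 in IL-2-KO (log2 0.09, limma adjusted p = 0.543). Trim5 stood at 15.7, 13.1, 18.4 and 16.5 in WT and 12.5, 16.9, 16.8 and 17.1 in IL-2-KO (log2 -0.01, limma adjusted p = 0.962). The values of both genes overlapped between groups.

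Trim12a was low throughout, at 4.21, 3.50, 4.81 and 4.14 in WT and 4.44, 4.54, 5.74 and 4.18 in IL-2-KO (log2 0.16, limma adjusted p = 0.514). Trim34a stood at 15.0, 9.83, 13.6 and 14.6 in WT and 11.0, 19.4, 12.7 and 19.99 in IL-2-KO (log2 0.21, limma adjusted p = 0.525). Trim34b stood at 18.9, 15.5, 20.02 and 22.4 in WT and 18.2, 24.5, 19.9 and 24.7 in IL-2-KO (log2 0.18, limma adjusted p = 0.414). In both Trim34 genes IL-2-KO replicates 2 and 4 were high and replicates 1 and 3 lay within the WT range. Values of these paralogs are uncertain one against another. Of the 50-base stretches of Trim34b, 59% also occur in Trim34a. Of those of Trim5, 38.1% occur in other genes, mostly Trim12c, and of those of Trim12c 32.7% do. Exons of a predicted gene on the other strand cover 23.5% of the exon bases of Trim34a.

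**Figure D2:**
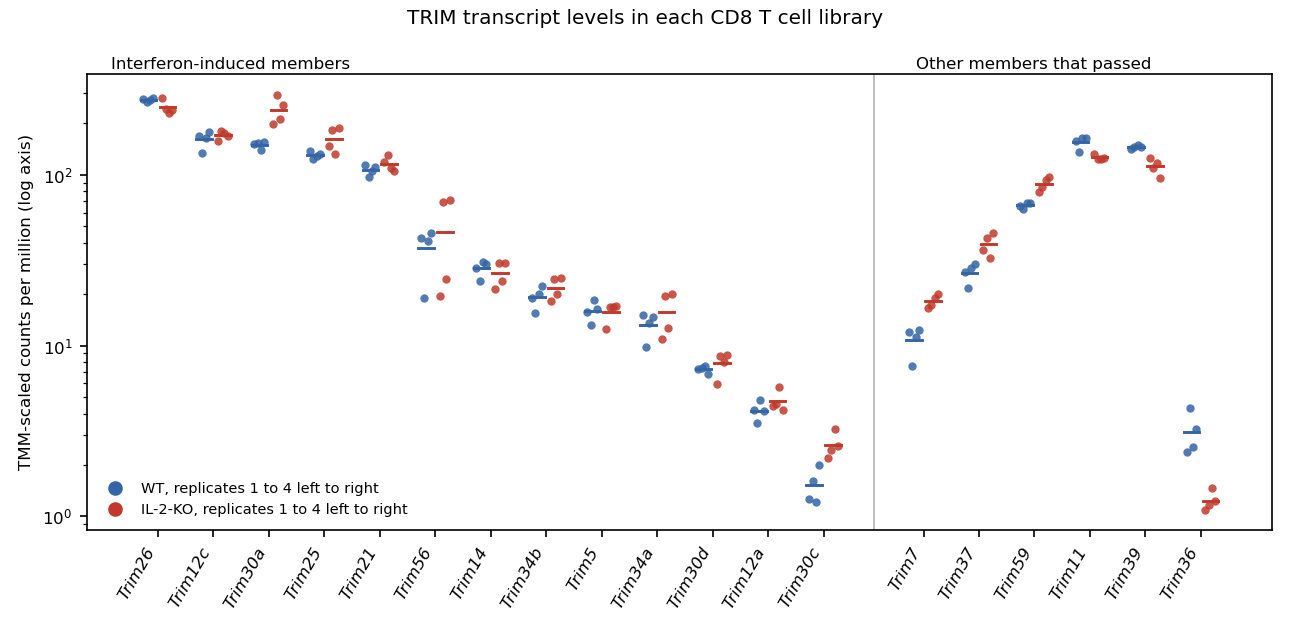
Levels per library (y axis, TMM-scaled counts per 1e6, log scale) for the 13 interferon-induced members on the left and the 6 other members that passed on the right, with 1 point for each of the 4 WT and 4 IL-2-KO libraries and a bar at the group mean. The IL-2-KO points of Trim30a lie above all of its WT points, and those of Trim36 lie below all of its WT points.

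Outside the cluster, none of the 5 interferon-induced members passed. Trim25, the ligase that attaches ubiquitin in the RIG-I pathway, was nearest to it. Its level was 137, 123, 129 and 132 in WT and 147, 182, 132 and 189 in IL-2-KO. IL-2-KO replicates 1, 2 and 4 were above every WT library and replicate 3 was within their range. The means were 130 ± 6.04 and 162 ± 27.4 (log2 0.30, SE 0.112, 95% interval 0.05 to 0.55, limma adjusted p = 0.0896). Without IL-2-KO replicate 3 the change was 0.39 and passed the test (limma adjusted p = 0.0221). It did not pass with any other single library left out (limma adjusted p 0.0856 to 0.1945). Trim25 was called in 4 of 20 alternatives.

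Trim21, a cytosolic receptor for antibody-coated virus, stood at 115, 97.0, 105 and 110 in WT and 119, 130, 110 and 105 in IL-2-KO (log2 0.12, limma adjusted p = 0.382). Trim26, a ligase reported in the control of interferon-beta induction, had a change of -0.15 (limma adjusted p = 0.193). Its level was 277, 265, 273 and 282 in WT and 280, 242, 230 and 240 in IL-2-KO. In IL-2-KO replicates 2 to 4 it was below every WT library, and replicate 1 was within the WT range. Trim14, a RING-less adaptor of mitochondrial antiviral signalling, stood at 28.4, 23.98, 30.8 and 30.1 in WT and 21.6, 30.4, 23.9 and 30.6 in IL-2-KO (log2 -0.10, limma adjusted p = 0.660). Exons of Nans on the other strand overlap 31.3% of the exon bases of Trim14, and no source used here gives the strand setting of the counting.

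Trim56, a ligase of cytosolic nucleic acid sensing, varied more between libraries than between groups. It stood at 42.7, 19.0, 41.1 and 45.5 in WT and 19.6, 69.3, 24.6 and 71.4 in IL-2-KO. WT replicate 2 and IL-2-KO replicates 1 and 3 were low, while IL-2-KO replicates 2 and 4 were above every WT library. The change was 0.16 with an interval from -0.82 to 1.14 (limma adjusted p = 0.833), an interval that spans both directions. The estimate was -0.13 without WT replicate 2, -0.11 without IL-2-KO replicate 2 and -0.12 without IL-2-KO replicate 4.

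Of 27 listed interferon-responsive genes outside the family, 26 rose (limma, Benjamini-Hochberg) with a median of 1.02, and in 23 of them the groups did not overlap. The exception was Sp100. Over all genes tested 11.1% were called higher, and in 24.2% the groups did not overlap, in either direction. The list was chosen with earlier results of these data known, so its count is a description. Ifit3, which binds viral RNA together with other Ifit proteins, rose from 5.12 ± 1.45 to 36.1 ± 14.2 (SD, n = 4 each, log2 2.66, limma adjusted p = 1.5e-04). Parp14, a mono-ADP-ribosyltransferase, rose from 153 ± 10.01 to 320 ± 40.7 (log2 1.05, limma adjusted p = 9.5e-05). Ly6e, a membrane protein with antiviral activity, rose from 102 ± 8.66 to 207 ± 17.7 (log2 1.02, limma adjusted p = 8.5e-05). The changes of the called interferon-induced TRIM members were 0.66 (Trim30a) and 0.63 (Trim30c). The summed level of the 27 genes was 2144 to 2405 in WT and 3230 to 3604 in IL-2-KO, without overlap. That of the 13 interferon-induced TRIM genes was 866 to 1001 in WT and 975 to 1204 in IL-2-KO, with overlap.

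**Figure D3:**
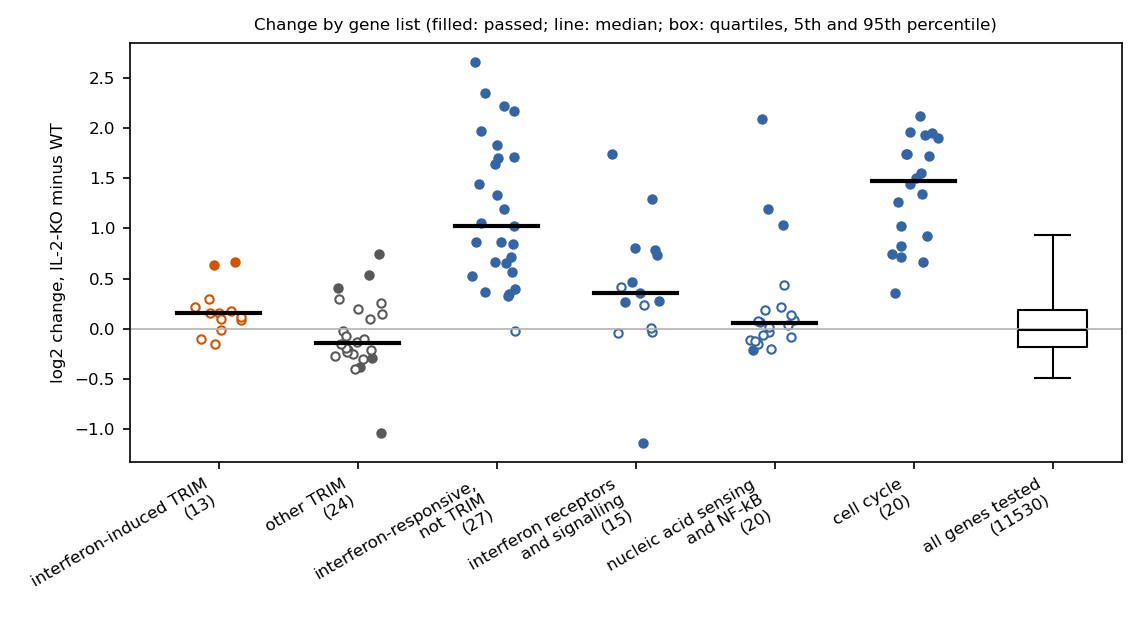
Log2 change in IL-2-KO against WT (y axis) of every tested gene of 6 lists, with 1 point per gene, filled where it passed, a line at the list median, and a box with quartiles and 5th and 95th percentiles for all genes tested. The interferon-responsive genes outside the family centre on 1.02 and the cell cycle genes on 1.47, while the interferon-induced TRIM members centre on 0.16 and the other members on -0.14.

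Of 15 genes of interferon receptors and signalling, 9 rose and 1 fell, with a median of 0.35. This is 66.7% called, beside 19.2% of all genes tested. Usp18, a negative regulator of the type I receptor, rose from 10.2 ± 1.74 to 26.7 ± 10.4 (log2 1.30, limma adjusted p = 0.00406). Ifngr2, the signalling chain of the interferon-gamma receptor, went from 54.4 ± 6.29 to 25.1 ± 6.39 and fell by 1.13 on the log2 scale (limma adjusted p = 0.00182). Among 20 genes of nucleic acid sensing and NF-kB signalling, which several TRIM ligases act on, 3 rose and 1 (Tbk1) fell, with a median of 0.06. This is 20% called, near the 19.2% of all genes tested. The 3 that rose were the RNA sensor Ifih1 (log2 1.04, limma adjusted p = 0.00192), its relative Dhx58 (2.09, 1.5e-04) and the transcription factor Irf7 (1.19, 6.1e-04).

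Pml, a TRIM protein whose gene keeps another symbol and which organises nuclear bodies, changed by about as much as Trim30a. It rose from 103 ± 4.49 to 162 ± 19.6 (SD, n = 4 each, log2 0.64, limma adjusted p = 7.9e-04). Mid1, another such gene, had 1 high library in each group and was not called (18.1 ± 10.7 and 37.05 ± 46.0, limma adjusted p = 0.651). Mid2 was listed but below the filter, and Mefv was not listed.

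Among members outside the interferon-induced list, 3 rose. Trim7, a B30.2 ligase named for its binding of glycogenin, had the largest rise of the family in the main analysis. It stood at 12.0, 7.59, 11.3 and 12.3 in WT and 16.6, 17.2, 18.9 and 19.96 in IL-2-KO. Each IL-2-KO library was above each WT library, and WT replicate 2 was the lowest. The mean rose from 10.8 ± 2.19 to 18.2 ± 1.54, 1.67-fold (log2 0.74, SE 0.158, limma adjusted p = 0.00926). The change of Trim30a was larger than that of Trim7 without WT replicate 2 (0.67 against 0.59), without that library and IL-2-KO replicate 3 (0.72 against 0.57), under quantile scaling (0.66 against 0.64) and with array weights (0.85 against 0.58). Of 17 members outside the interferon-induced list with a promoter, 2 (11.8%) held the element core, Trim7 and Trim2. Over all genes with a promoter the share was 9.76%. Trim2 was not called, and a part of the core in the change of Trim7 was not tested. Exons of a predicted gene on the other strand cover 6.46% of the exon bases of Trim7.

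Trim37, a ligase of centriole duplication and peroxisomal import, stood at 27.1, 21.7, 28.4 and 29.8 in WT and 36.1, 42.4, 32.7 and 45.7 in IL-2-KO. The groups did not overlap, with WT replicate 2 again the lowest. The mean rose from 26.8 ± 3.57 to 39.2 ± 5.90, 1.45-fold (log2 0.54, SE 0.134, limma adjusted p = 0.0193). Without IL-2-KO replicate 2 the change was 0.50 and missed the threshold (limma adjusted p = 0.0537).

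Trim59, a membrane-anchored member, stood at 65.6, 62.7, 68.1 and 68.2 in WT and 78.8, 84.99, 93.4 and 96.4 in IL-2-KO. The lowest IL-2-KO library was above the highest WT library. The mean rose from 66.2 ± 2.60 to 88.4 ± 8.01, 1.33-fold (log2 0.41, SE 0.0801, limma adjusted p = 0.00588). Cell cycle genes moved in the same direction: 20 of 20 rose, with a median of 1.47 and a summed level of 1100 to 1250 in WT and 2326 to 2825 in IL-2-KO. Among them Mki67, a marker of dividing cells, rose from 120 ± 17.4 to 461 ± 76.7 (SD, n = 4 each), and the DNA synthesis gene Rrm2 rose from 29.7 ± 3.337 to 101 ± 11.6. Their part in the changes of Trim37 and Trim59 was not tested.

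Trim36, a microtubule-associated member of class C-I whose gene lies on chromosome 18, had the largest change of the family with the pseudocount of 0.5. It stood at 2.37, 4.30, 2.54 and 3.26 in WT and 1.09, 1.16, 1.46 and 1.23 in IL-2-KO. Every IL-2-KO library was below every WT library, and WT replicate 2 was the highest. The mean went from 3.12 ± 0.876 to 1.24 ± 0.160, and the level fell by 1.03 on the log2 scale (SE 0.207, limma adjusted p = 0.00679). Its lowest library rested on 16.3 counts. The size depends on the pseudocount: the change was -0.65 with a pseudocount of 2, smaller than those of Trim7 (0.67) and Trim30a (0.66) there, and -1.24 with one of 0.1, and it passed the test with each.

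Trim39, which is known to stabilise the apoptosis modulator MOAP-1, stood at 141, 145, 149 and 145 in WT and 125, 110, 117 and 96.2 in IL-2-KO. The WT libraries were close together and all above the IL-2-KO libraries. The mean went from 145 ± 3.19 to 112 ± 12.4, a fall of 0.37 (log2 -0.37, SE 0.0841, limma adjusted p = 0.0120). Trim11, a ligase with a part in clearing misfolded proteins, stood at 157, 137, 164 and 163 in WT and 132, 124, 124 and 125 in IL-2-KO. The groups did not overlap, with WT replicate 2 nearest to IL-2-KO. The mean went from 155 ± 12.7 to 126 ± 3.97 (log2 -0.29, SE 0.0741, limma adjusted p = 0.0207). The Trim11 call was lost without WT replicate 1 (limma adjusted p = 0.0591), WT replicate 3 (0.0761), WT replicate 4 (0.0741) or IL-2-KO replicate 2 (0.0517).

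Trim68, a B30.2 ligase first described as a partner of the androgen receptor, was without overlap between groups but missed the threshold. It stood at 57.2, 48.5, 51.6 and 58.4 in WT and 47.3, 45.9, 43.7 and 38.1 in IL-2-KO (log2 -0.30, limma adjusted p = 0.0536). All IL-2-KO values were below the lowest WT value, that of WT replicate 2, by a small margin. It was named after its values were seen, as it stood just outside the threshold.

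The chromatin members of class C-VI, which carry a PHD finger and bromodomain, had 0 limma calls among 3, and 0 at an unadjusted p under 0.05. Trim28 and Trim24 had the smallest spread within groups of all members. Trim28, the corepressor recruited by KRAB zinc finger proteins to silence retroelements, stood at 264, 278, 262 and 264 in WT and 297, 275, 284 and 285 in IL-2-KO. WT replicate 2 was above IL-2-KO replicate 2, and the other WT libraries were below all IL-2-KO libraries. The change was 0.09 (interval -0.04 to 0.23, limma adjusted p = 0.308). Trim24, a retinoid receptor cofactor, stood at 61.8, 63.4, 64.1 and 66.7 in WT and 64.1, 61.2, 63.9 and 62.3 in IL-2-KO, with overlap. Its change was -0.03 (interval -0.17 to 0.12, limma adjusted p = 0.820), and this interval leaves out changes of more than 0.17 in either direction.

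Trim33, which acts on Smad4 and Smad2 or Smad3 in TGF-beta signalling, stood at 146, 142, 169 and 154 in WT and 117, 155, 130 and 156 in IL-2-KO. IL-2-KO replicates 1 and 3 were below every WT library and replicates 2 and 4 within the WT range (log2 -0.13, limma adjusted p = 0.404). Of 11 genes of the Trim28 corepressor complex, 1 rose, the heterochromatin protein gene Cbx5 (log2 0.53, limma adjusted p = 0.0155), and the list median was -0.02. The histone methyltransferase Setdb1 had a change of -0.17 (limma adjusted p = 0.0879) and the remodeller Chd3 one of 0.42 (0.132). Of 5 partners of Trim33 and Trim24, the retinoic acid receptor gene Rara fell by 0.60 on the log2 scale (limma adjusted p = 0.00942). Smad3 (0.41, limma adjusted p = 0.0539) and Smad4 (-0.40, 0.136) did not pass.

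By class of C-terminal domain, 21 C-IV members with a B30.2/SPRY domain were listed, with 3 rises, 2 falls and a median of 0.09. This is 23.8% called, beside 19.2% of all genes tested. The 5 members of the single-member and membrane classes (Trim13, Trim23, Trim37, Trim45 and Trim59) had 2 rises and a median of 0.26. Class C-I had 1 fall, Trim36, among 2 listed members, with a median of -0.42. No member of the C-V (2), C-VI (3), C-VII (2) or RING-less (2) classes was called by limma, and none of the muscle class C-II was listed. Counts in classes this small cannot be set apart from the 19.2% over all genes, and a difference between classes was not tested. The members not named with values had changes within -0.40 (Trim15) to 0.30 (Trim2), none past the threshold.

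Levels can be compared between members only per length, here the value divided by the length in kb of the longest GENCODE transcript. For Trim56 this transcript (9279 bases) is longer than the RefSeq gene (5177 bases), so its level per kb is uncertain. In WT cells Trim28 was the highest at 82.3 ± 2.23 per kb (SD, n = 4), followed by Trim26 at 63.2 ± 1.65. Trim11 (44.1 ± 3.60), Trim12c (43.0 ± 5.11), Trim30a (39.8 ± 1.81) and Trim21 (38.2 ± 2.69) came next, each within the spread of its neighbour in this order, and then Trim39 at 30.7 ± 0.677. Trim2 was the lowest at 0.350 ± 0.0423. In IL-2-KO cells Trim30a stood at 63.7 per kb and Trim26 at 57.2 per kb, a difference in order that was not tested. Trim30c had no transcript length in the table and was left out.

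**Figure D4:**
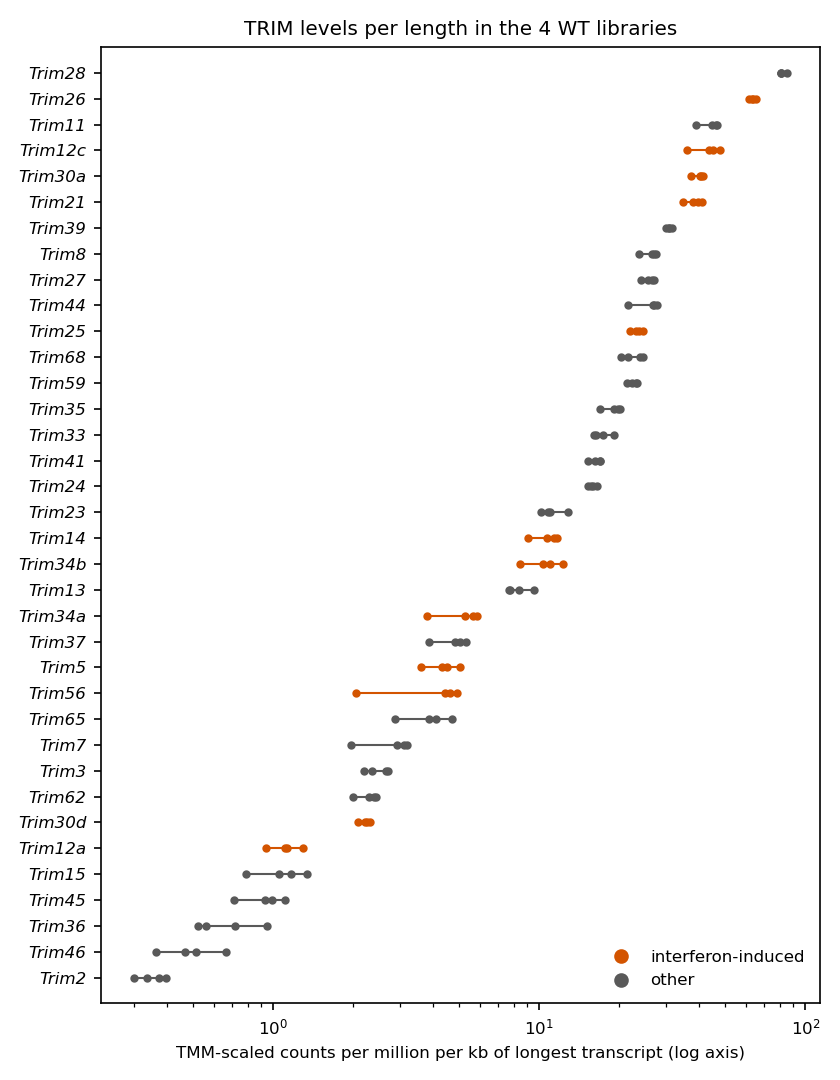
Level per kb of the longest GENCODE transcript (x axis, TMM-scaled counts per 1e6 per kb, log scale) of the 36 members with a transcript length. Each member has 1 point for each of the 4 WT libraries and a line over their range. Trim28 is at the top and Trim2 at the bottom, and the range of Trim56 is wide because of 1 low library.

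The steadiness of members within a group differed widely. The SD of log2 values within groups was 0.798 for Trim56, above that of 98.6% of all genes tested, 0.382 for Trim65 and 0.353 for Trim34a. It was 0.0391 for Trim24, with 0.399% of genes below it, and 0.0420 for Trim28, with 0.694% below. The median over members was 0.190, beside 0.175 over all genes. WT replicate 2, the library with the fewest counts, was the lowest of its group for 22 of 37 members (59.5%, beside 36.8% of all genes) and for 10 of the 13 interferon-induced members. IL-2-KO replicate 1 was the lowest of its group for 15 members (40.5%, beside 25.7%) and for 9 of the 13. The median difference of the interferon-induced members from the WT mean was -0.03, 0.28, 0.06 and 0.27 in IL-2-KO replicates 1 to 4, so replicates 2 and 4 carried most of the list's shift. For the other members it was -0.09, -0.02, -0.04 and -0.05. Replicates 1 to 4 came from 26.7, 42.6, 1.1 and 0.4 M cells, and the part of cell number was not tested.

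**Figure D5:**
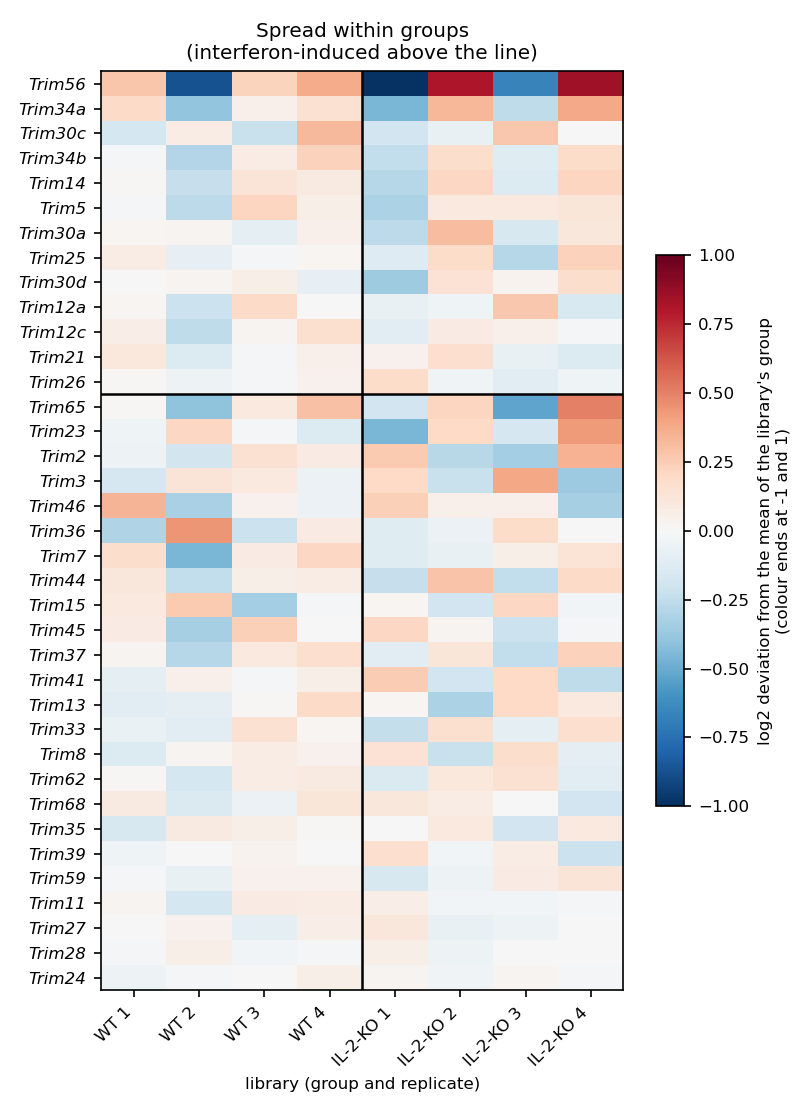
Difference of each library from its own group's mean (colour, log2, ending at -1 and 1) for every member (rows, the interferon-induced ones above the line) in the 4 WT and 4 IL-2-KO libraries (columns). WT replicate 2 is low for many members, Trim56 has the strongest colours, and Trim24 and Trim28 are nearly blank.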

How the data were processed

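The members and lists were chosen with earlier results of these data known. Values are the authors' deposited signal, in counts per 1e6 of the TMM-scaled library size per the table's title. The columns sum to between 988292 and 1022950. The submitters' processing notes name featureCounts, limma 3.34.9, R 3.4.3, GRCm38 and mm10. The aligner and strand setting are not given in the sources used here. No listed gene was below about 1 in more than 5 libraries, which shows that the deposited list had been filtered. Values under 20 were whole multiples of 0.01 read (within 0.05 of that step), 54.6% to 65.0% of them whole reads (within 0.001), from which depth was recovered. Column sums above 1e6 made the unit a signal where CPM had been planned, and the planned limma test was kept, with no count test.

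Entrez identifiers were matched to RefSeq symbols (11651 matched, 72 not). The filter asked for a value of 1 or more in 4 or more libraries (11530 of 11723 genes). On log2(value + 0.5), limma 3.58.1 under R 4.3.3 tested IL-2-KO against WT (empirical Bayes with a mean-variance trend, two-sided, Benjamini-Hochberg adjustment, threshold 0.05). The steps were tested on simulated data with independent genes and the same dispersion for each. Such data do not check error rates under variation that genes share. The series' text calls the libraries biological replicates. The replicate numbers did not pair the libraries. Named genes were every member that passed, every interferon-induced member, Trim24, Trim28 and Trim33, the 5 most abundant members, up to 3 genes of each other list by adjusted p, and Il2, apart from genes that are not reported here. Promoters came from RefSeq (GRCm38.p6, 42 promoters of 29 members, of which 36 matched GENCODE transcripts of their gene after the start). The 50-base stretches were compared over all GENCODE transcripts, which also gave the transcript lengths. Alternatives were other pseudocounts, filters and scalings, leaving out each library, leaving out WT replicate 2 with IL-2-KO replicate 3, only libraries of at least 2 M (1e6) cells, a cell number term, array weights, a replicate block and, added after the data were seen, removal of GC and length trends.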

Additional observations from a re-analysis of the deposited data

Results flagged for a closer look

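In 116 groups of 4 libraries, 1 library stood apart from the others in 9 cases, its gap to the nearest library, divided by the group's range, being past Dixon's 95% limit. Chance alone does this in about 1 of 20 groups. Among members, WT replicate 2 was apart for Trim28 (0.902, at 278 against 262 to 264), Trim44 (0.8292, at 121 against 150 to 155) and Trim56 (0.831, at 19.0 against 41.1 to 45.5). IL-2-KO replicate 1 was apart for Trim5 (0.944, at 12.5 against 16.8 to 17.1) and Trim11 (0.8291, at 132 against 124 to 125). Outside the symbol rule, Mid1 had 1 high library in each group, WT replicate 1 (0.878, at 34.0 against 11.0 to 13.8) and IL-2-KO replicate 3 (0.900, at 106 against 10.4 to 19.95). WT replicate 2 was apart for Ifngr2 (0.875, at 63.8 against 50.4 to 52.0) and for Mki67 (0.890, at 94.4 against 127 to 131). WT replicate 2 thus accounted for 5 of the 9 cases.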

How the results depend on the processing

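With each library left out in turn, members called higher numbered 3 to 5, members called lower 2 to 4, interferon-induced members called higher 1 to 2, the median of the interferon-induced members 0.064 to 0.21 and that of the other members -0.17 to -0.087, while calls over all genes ranged from 846 to 1295 higher and from 439 to 938 lower. Restricting the test to the 4 libraries of at least 2 M (1e6) cells left 0 members higher and 0 lower, 0 interferon-induced members, 15 of the other interferon-responsive genes, 322 higher and 62 lower calls and a median of -0.062 for the other members. This fit had fewer samples. Members called lower numbered 5 under quantile scaling, 10 with array weights and 5 with GC and length trends removed. Interferon-induced members called higher numbered 1 under a pseudocount of 0.1, a minimum of 5, a median shift, quantile scaling, a cell number term and the replicate block. Array weights gave 2240 higher and 2119 lower calls. The median of the other members was -0.17 under a median shift and under quantile scaling, -0.092 with array weights and -0.11 with GC and length trends removed. Same-numbered libraries did not deviate together (correlations 0.08, -0.53, -0.40 and 0.39), nor did every library correlate best with its own number. The largest correlation between groups, 0.66, was that of WT replicate 2 with IL-2-KO replicate 3, and its cause was not tested. The replicate block gave 4 members higher and 2 lower, without Trim30c (limma adjusted p = 0.116) and Trim11 (0.0624), with 486 lower calls over all genes.

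Uncalled genes changed sign in some settings. Quantile scaling gave Trim12a -0.027, Trim30d -0.060, Trim46 -0.025 and Il2 -0.11. The large libraries gave Trim30d -0.021, Trim5 0.013, Trim24 0.00047 and Mid1 -0.57. With each library left out in turn, Trim5 ranged from -0.10 to 0.094, Trim56 from -0.13 to 0.49, Mid1 from -0.25 to 0.84 and Il2 from -0.10 to 0.20. With GC and length trends removed Trim5 was 0.013. With both WT replicate 2 and IL-2-KO replicate 3 left out, Trim12c was -0.011, Mid1 -0.33 and Il2 -0.12. Array weights gave Mid1 -0.18. For these shifts the cause was not tested. Depth limits Trim36, Trim30c, Trim15 and Trim46, whose lowest libraries held 14 to 19 counts.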
